A study of Homo sapiens with 24 samples.

Results

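The retinoblastoma pathway genes described here were the 8 E2F transcription factors (E2F1 to E2F8) and the pocket proteins RB1 and RBL1, 10 of the 23207 genes in the tables, picked by symbol. They were followed by RNA sequencing in LNCaP, an established androgen-responsive line of human prostate cancer, in 24 libraries that make 8 groups of 3. All cells had taken up lentiviral short hairpin RNA at a multiplicity of infection of 10, and stable clones were grown under puromycin, so every group is a selected clone. The 8 groups fall into a set in fetal bovine serum (FBS) and a set in charcoal-stripped serum (CSS, depleted of androgens).

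The FBS set compared a non-targeted hairpin (NTC, tagged scrambled in the labels) with a hairpin against SIRT1 (shSIRT1), both in FBS with the androgens it carries. The CSS set compared NTC with a SIRT1 knockdown named 10. Its cells spent 48 h in FBS and 24 h in CSS, and then 24 h in CSS with vehicle, with 1 nM dihydrotestosterone (DHT, the main tissue androgen), or with 1 nM DHT plus 10 µM enzalutamide, which blocks the androgen receptor. The labels do not state whether shSIRT1 and 10 carry the same hairpin, so hairpin, clone and medium cannot be told apart between the sets. Within each set the loss of SIRT1, the hairpin and the clone cannot be told apart either. The aim stated for the series was to find genes that SIRT1, an NAD-dependent deacetylase, controls in these cells.

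E2F factors bind DNA with a DP partner and switch on the genes of DNA replication as a cell leaves G1. In resting cells the pocket proteins hold them back: RB1 mainly binds the activators E2F1, E2F2 and E2F3, while RBL1 (p107) and RBL2 (p130) bind E2F4 and E2F5 and form the DREAM repressor with the MuvB proteins. E2F6 represses with Polycomb proteins and no pocket protein, and E2F7 and E2F8, the atypical members, repress late in S phase without DP. Several of the genes, E2F1 and RBL1 among them, are themselves known E2F targets, and androgen is known to drive LNCaP cells through G1.

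Promoter sequence was available in RefSeq (build GRCh38.p14) for 8 of the 10 genes, as the 250 bases before an annotated start. The E2F consensus was searched on both strands as 8 octamers, TTTCCCGC, TTTCCCGG, TTTCGCGC, TTTCGCGG, TTTGCCGC, TTTGCCGG, TTTGGCGC and TTTGGCGG. At least 1 of them occurred in 5.23% of 35116 such windows and at 2 or more positions in 0.288%. The windows below are shown because their genes take the leading part in the results: E2F1, E2F2 and RBL1 rose with androgen, as did E2F7, and E2F3 has 2 starts. They are written 5′ to 3′ on the gene's strand, ending at the base before the start, with matches in capitals. E2F1 lies on the minus strand at chr20:33686386-33686635, E2F2 on the minus strand at chr1:23531234-23531483, RBL1 on the minus strand at chr20:37095998-37096247, the first E2F3 start on the plus strand at chr6:20401629-20401878, and E2F7 on the minus strand at chr12:77065570-77065819.
E2F1: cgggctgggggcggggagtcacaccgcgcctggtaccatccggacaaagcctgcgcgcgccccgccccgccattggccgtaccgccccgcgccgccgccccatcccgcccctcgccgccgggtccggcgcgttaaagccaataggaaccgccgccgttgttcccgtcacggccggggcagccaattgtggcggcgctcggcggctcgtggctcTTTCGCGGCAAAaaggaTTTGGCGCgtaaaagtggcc
E2F2: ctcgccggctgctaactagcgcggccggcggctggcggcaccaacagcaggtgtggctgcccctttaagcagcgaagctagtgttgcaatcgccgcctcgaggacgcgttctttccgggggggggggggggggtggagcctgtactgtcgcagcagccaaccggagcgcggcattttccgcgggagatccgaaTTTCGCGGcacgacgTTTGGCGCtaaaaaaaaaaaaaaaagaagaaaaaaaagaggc
RBL1: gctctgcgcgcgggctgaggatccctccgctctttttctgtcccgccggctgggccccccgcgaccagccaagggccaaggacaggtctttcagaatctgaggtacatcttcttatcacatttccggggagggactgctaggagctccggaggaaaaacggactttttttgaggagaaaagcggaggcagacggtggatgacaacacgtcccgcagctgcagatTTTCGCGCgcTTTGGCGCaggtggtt
E2F3: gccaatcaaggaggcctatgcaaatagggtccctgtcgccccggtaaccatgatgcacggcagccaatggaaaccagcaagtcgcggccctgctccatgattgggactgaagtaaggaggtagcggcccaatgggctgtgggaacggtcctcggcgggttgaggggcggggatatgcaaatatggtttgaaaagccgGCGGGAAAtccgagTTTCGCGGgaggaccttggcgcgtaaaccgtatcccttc
E2F7: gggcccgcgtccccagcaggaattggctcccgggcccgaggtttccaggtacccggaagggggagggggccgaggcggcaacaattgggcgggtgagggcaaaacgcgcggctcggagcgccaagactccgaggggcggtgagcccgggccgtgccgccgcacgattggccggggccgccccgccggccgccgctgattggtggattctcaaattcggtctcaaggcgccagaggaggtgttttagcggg

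The E2F1 window held matches at 3 positions between 37 and 13 bases before the start, TTTCGCGG, TTTGCCGC on the other strand and TTTGGCGC, of which the first 2 overlap. E2F2 held TTTCGCGG and TTTGGCGC, and RBL1 held TTTCGCGC and TTTGGCGC within 26 bases of the start. The window of the first E2F3 start held TTTCGCGG and, on the other strand, TTTCCCGC. The window before the second E2F3 start, chr6:20403364-20403613, held none. E2F6, which did not rise with androgen, held TTTCCCGG 2 times, and none of the octamers lay in the windows of E2F4 or E2F7. The RB1 window of the table lies inside the gene and is not its main promoter. A match is only a run of letters, and binding was not measured here.

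Library totals were 11894009 to 14196160 expected counts in FBS and 25236335 to 35108290 in CSS, and the 10 genes together held 0.021 to 0.041% of them. SIRT1, the targeted gene, was lower in every knockdown library than in any NTC library of its medium. In FBS it was at 20.7, 19.0 and 18.7 TPM (a transcript level corrected for length and library size) in NTC and 4.28, 4.65 and 3.56 TPM in shSIRT1 cells. In CSS it was at 18.6 to 26.3 TPM in the 9 NTC libraries and 5.77 to 9.21 TPM in the 9 libraries of knockdown 10. KLK3, the androgen-induced gene for prostate-specific antigen, was 9.37-fold higher with DHT than with vehicle in NTC cells (adjusted p = 3.96e-10, edgeR). The 8 LNCaP markers summed to 2600.0 to 3230.0 TPM, of which FOLH1 alone held 1000.0 to 1600.0 TPM. Single markers moved more: KLK3 spanned 6.05 to 600.0 TPM, KLK2 1.27 to 147.0 and TMPRSS2 17.2 to 357.0. KLK3 was 4.23-, 2.52- and 3.05-fold lower in knockdown 10 with vehicle, DHT and enzalutamide, and 3.83-fold lower in shSIRT1 cells. In each of these CSS contrasts 3 of the 8 were lower, and 1, 2 and 2 were higher. The 5 basal cell markers summed to 7.99 to 45.5 TPM, with KRT5 at 0 in 18 and TP63 at 0 in 21 of 24 libraries, and the 5 fibroblast and 5 leukocyte or endothelial markers summed to 4.88 to 10.6 and 5.64 to 11.8 TPM, with DCN at 0 in 22 and CD3E in 23. Within these lists VIM (7.33 to 45.5 TPM), COL1A1 (3.59 to 8.50), COL3A1 (1.05 to 3.86), CD68 (5.04 to 7.84) and VWF (0.52 to 1.64) were above 0 in every library. Of these, COL3A1 was higher in knockdown 10 with vehicle, DHT and enzalutamide (log2 0.53, 0.73 and 0.76) and VWF lower (-0.85, -0.59 and -0.83), CD68 was higher with DHT alone (0.31, adjusted p = 0.0351), and VIM and COL1A1 did not pass; the part of other cells in the results was not tested. Replicate 2 of knockdown 10 with DHT stood apart from the other 2 libraries of its group (chi-square per gene 38.55 and 22.43, against 1.55 to 20.83 in all other pairs). FBS replicates 1 and 2 of each group differed least (1.55 and 1.60), and replicate 3 of both FBS groups was lower in the cycle-linked genes, as given below. The labels do not say that replicates came from separate cultures, so p-values measure the spread between these libraries, which may be technical.

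E2F4 had the highest mean level of the 10 genes in all 8 groups. In NTC cells with vehicle the order of mean levels was E2F4 at 38.9 ± 1.41 TPM (SD, n = 3 here and below), RB1 at 22.6 ± 0.764, E2F3 at 20.7 ± 0.98, E2F5 at 16.3 ± 0.325, E2F6 at 11.6 ± 0.543, E2F1 at 9.55 ± 1.05 and RBL1 at 5.88 ± 0.562 TPM. Neighbours in this order did not overlap between libraries. E2F8 (1.57 ± 0.341 TPM), E2F2 (1.31 ± 0.131 TPM) and E2F7 (1.17 ± 0.225 TPM) came last and overlapped each other. With DHT, E2F1 moved to the second place in NTC cells, between E2F4 and RB1, at 37.3 ± 2.57 TPM. The same second place was held by E2F1 in both FBS groups, where its range overlapped that of E2F4. In knockdown 10 with vehicle, E2F1 was seventh at 3.86 ± 0.637 TPM, with a range that overlapped that of RBL1.

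**Figure D1:**
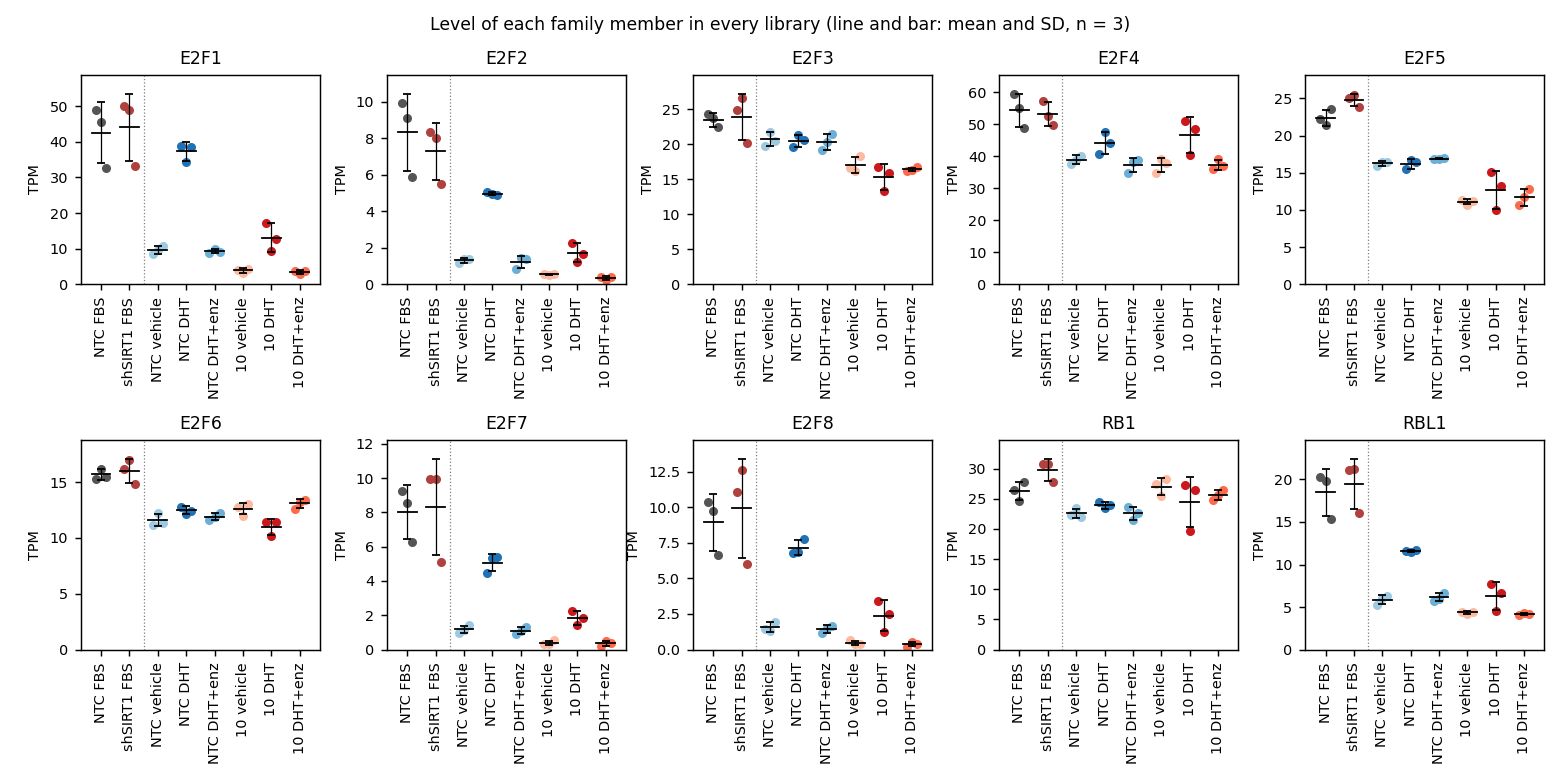
Level of each of the 10 genes in TPM (vertical axis, from 0) in all 24 libraries, by group, with the mean and SD of 3 libraries as line and bar. NTC is the non-targeted hairpin, 10 and shSIRT1 are the SIRT1 knockdowns, enz is enzalutamide, and the dotted line parts the FBS set from the stripped-serum set. E2F1, E2F2, E2F7, E2F8 and RBL1 share one profile, high in FBS and with DHT and lowest in knockdown 10 without DHT, while RB1 and E2F6 stay within a narrow band.

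Androgen raised the activators E2F1 and E2F2, while E2F3 did not pass the test. E2F1 was at 8.52, 9.52 and 10.6 TPM in NTC cells with vehicle, and at 38.9, 34.3 and 38.6 TPM with DHT. With DHT plus enzalutamide it was at 8.74, 9.85 and 9.04 TPM. The vehicle and enzalutamide libraries overlapped, and all 3 DHT libraries lay above both. In the fit, E2F1 rose 3.87-fold with DHT (log2 fold change 1.95, SE 0.139, edgeR adjusted p = 1.93e-08) and fell 4.04-fold when enzalutamide was added (adjusted p = 7.07e-09). In bulk RNA, fewer cells in a given phase of the cycle and less RNA per cell cannot be told apart, here and in all results that follow. E2F2 was at 1.16, 1.37 and 1.40 TPM with vehicle, 5.04, 4.97 and 4.87 TPM with DHT, and 0.85, 1.45 and 1.37 TPM with enzalutamide. It rose 3.77-fold with DHT (log2 1.91, adjusted p = 3.59e-07) and fell 4.07-fold with enzalutamide (adjusted p = 1.44e-07). E2F3 was at 19.8, 21.7 and 20.5 TPM with vehicle and at 19.6, 21.3 and 20.6 TPM with DHT, groups that overlapped almost fully, and its fitted change was 0.00 on the log2 scale (SE 0.051, adjusted p = 0.97).

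The atypical repressors E2F7 and E2F8 rose as well. E2F7 was at 0.98, 1.12 and 1.42 TPM in NTC cells with vehicle and at 4.48, 5.34 and 5.40 TPM with DHT. E2F8 was at 1.47, 1.29 and 1.95 TPM with vehicle and at 6.81, 6.87 and 7.75 TPM with DHT. The DHT libraries lay far above the others for both genes, with fitted increases of 4.28-fold for E2F7 (adjusted p = 1.57e-07) and 4.49-fold for E2F8 (adjusted p = 3.51e-06). Among the 14558 genes tested, E2F8 and E2F7 had the 48th and 54th largest changes in either direction. With enzalutamide E2F7 was at 0.90, 1.07 and 1.31 TPM and E2F8 at 1.16, 1.54 and 1.69 TPM, ranges that overlapped those with vehicle.

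Of the pocket proteins, RBL1 rose and RB1 did not pass the test. RBL1 was at 5.24, 6.11 and 6.29 TPM with vehicle and at 11.6, 11.5 and 11.7 TPM with DHT, a 1.91-fold rise (log2 0.93, SE 0.098, adjusted p = 1.03e-06), and it fell 1.84-fold with enzalutamide (adjusted p = 1.74e-06). RB1 was at 22.3, 23.4 and 22.0 TPM with vehicle and 24.5, 23.4 and 23.9 TPM with DHT (log2 0.08, SE 0.067, adjusted p = 0.428). The E2F1 to RB1 ratio of TPM moved with E2F1 alone, from 0.424 ± 0.0525 with vehicle to 1.56 ± 0.0793 with DHT and back to 0.409 ± 0.0444 with enzalutamide. RBL2, the pocket protein of resting cells, was at 75.0 to 82.3 TPM with vehicle and 62.6 to 65.8 TPM with DHT in NTC cells (log2 -0.27, adjusted p = 0.0521). Its call appeared in some alternative fits, among them those with the replicate number as a block or without any of 5 libraries. In the knockdown cells RBL2 fell with DHT (log2 -0.351, edgeR adjusted p = 0.0191). Adding enzalutamide to DHT raised RBL2 by 0.306 in NTC cells and 0.346 in the knockdown cells (adjusted p = 0.0308 and 0.0219). These calls were lost when any of 2, 3 and 2 libraries was left out.

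In NTC cells DHT raised 6 of the 10 genes and lowered none, where 29.9% of all tested genes were called, 17.4% higher and 12.5% lower. The sixth was E2F4, the main repressor partner of RBL2, with a small rise from 37.4, 38.9 and 40.2 TPM to 40.6, 47.5 and 44.0 TPM (1.12-fold, adjusted p = 0.0426). This call was lost when any 1 of 10 of the 18 libraries was left out (adjusted p 0.0514 to 0.177); it held without NTC DHT replicate 1, NTC enzalutamide replicate 1, 10 vehicle replicates 1 and 2, any 10 DHT library, or 10 enzalutamide replicate 2. Over all 26 alternative fits the E2F4 call with DHT was lost in 15. Enzalutamide lowered the same 6 genes, with 29.2% of all genes called, 12.6% higher and 16.6% lower. The DHT and enzalutamide contrasts share the DHT libraries, so the second is no repeat of the first. Between enzalutamide and vehicle, edgeR and DESeq2 each called 0 of the 10 genes in NTC cells, and 0 of 10 had an unadjusted p under 0.05. In knockdown 10 both tools again called 0, with E2F2 the 1 gene at an unadjusted p under 0.05 (0.0188, log2 -0.66, SE 0.255). Of all genes, edgeR called 0 (0% of those tested) in NTC cells and 1 (0.00687%) in knockdown 10 in this contrast.

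**Figure D2:**
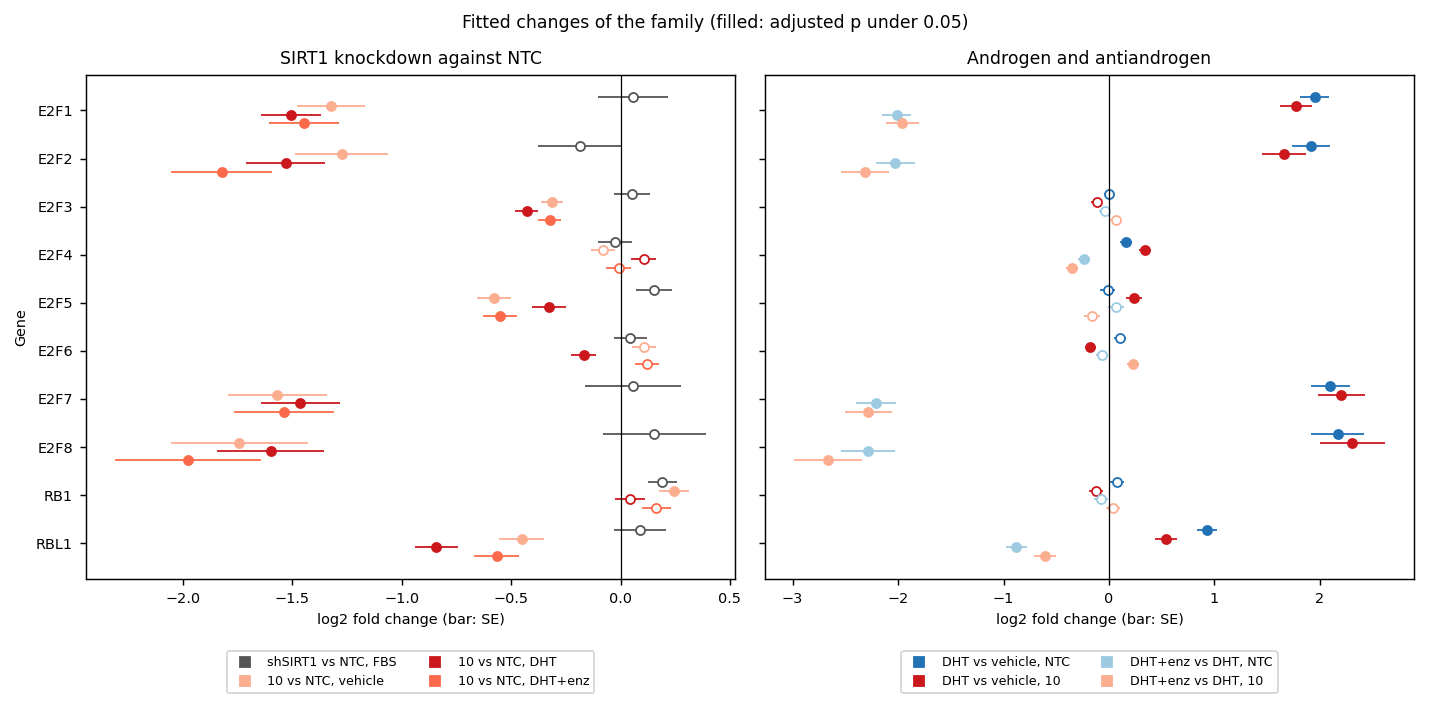
Fitted log2 fold change (horizontal axis, bar: standard error) of each gene, for the SIRT1 knockdown against NTC in 4 conditions and for DHT and enzalutamide in each hairpin; filled points have an adjusted p under 0.05. E2F1, E2F2, E2F7 and E2F8 lie between -1.98 and -1.27 in all 3 stripped-serum knockdown contrasts and near 0 in FBS.

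Knockdown 10 had less of the same cycle-linked genes in each CSS condition. In these contrasts the loss of SIRT1, the hairpin and the clone cannot be told apart. E2F1 was at 4.09, 3.14 and 4.35 TPM in knockdown 10 with vehicle, below all 3 NTC libraries, a 2.50-fold reduction (log2 -1.32, SE 0.156, adjusted p = 5.05e-06). With DHT it was at 17.3, 9.40 and 12.6 TPM, again below every NTC library with DHT, and 2.83-fold lower (adjusted p = 1.73e-07). With enzalutamide it was at 3.60, 2.87 and 3.75 TPM and 2.73-fold lower (adjusted p = 2.48e-06). Of the knockdown libraries with DHT, replicate 2, at 9.40 TPM, lay within the NTC vehicle range, and the others lay above it. E2F2 was at 0.57, 0.52 and 0.54 TPM with vehicle, 2.25, 1.22 and 1.68 TPM with DHT and 0.40, 0.23 and 0.42 TPM with enzalutamide, which made it 2.42-, 2.89- and 3.53-fold lower than in NTC cells (adjusted p = 0.000171, 2.77e-06 and 1.12e-05).

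E2F7 and E2F8 rested on few counts in knockdown 10. E2F7 was at 0.32, 0.35 and 0.54 TPM with vehicle, from 36, 37 and 55 counts, 2.96-fold lower than in NTC cells (adjusted p = 3.61e-05). E2F8 was at 0.66, 0.39 and 0.37 TPM with vehicle, from 47, 26 and 24 counts, and 3.34-fold lower (adjusted p = 0.000347). With DHT, E2F7 was at 2.22, 1.44 and 1.82 TPM and E2F8 at 3.44, 1.22 and 2.47 TPM, 2.76- and 3.03-fold lower than in NTC cells with DHT. The knockdown libraries lay below all NTC libraries of the same condition for both genes. RBL1 was at 4.42, 4.22 and 4.45 TPM with vehicle, 7.76, 4.50 and 6.61 TPM with DHT and 4.06, 4.25 and 4.21 TPM with enzalutamide. It was 1.37-, 1.79- and 1.48-fold lower than in NTC cells (adjusted p = 0.00223, 2.44e-06 and 0.000349), with no overlap in any of the 3 conditions.

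E2F3 and E2F5, which did not pass the test for DHT in NTC cells, were also lower in knockdown 10. E2F3 was at 16.6, 16.1 and 18.3 TPM with vehicle, 16.8, 13.3 and 15.9 TPM with DHT and 16.2, 16.3 and 16.7 TPM with enzalutamide, each below all NTC libraries of its condition (log2 -0.31, -0.43 and -0.32, adjusted p = 0.000137, 3.52e-06 and 0.000101). E2F5, a pocket protein partner like E2F4, was at 11.4, 10.7 and 11.2 TPM with vehicle against 15.9, 16.4 and 16.5 TPM in NTC cells (log2 -0.58, SE 0.077, adjusted p = 1.7e-05). Its differences were -0.33 with DHT (adjusted p = 0.00235) and -0.55 with enzalutamide (adjusted p = 2.82e-05). Both genes separated the hairpins with vehicle, where no library overlapped.

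RB1 moved the other way with vehicle. It was at 27.4, 25.4 and 28.2 TPM in knockdown 10 and at 22.3, 23.4 and 22.0 TPM in NTC cells, 1.18-fold higher with no overlap (log2 0.24, SE 0.067, adjusted p = 0.00863). With DHT the 2 hairpins overlapped (log2 0.04, adjusted p = 0.624). With enzalutamide the difference was 0.16 (adjusted p = 0.0683), and it passed the threshold with the replicate number as a block (0.17, adjusted p = 0.0166) and without NTC enzalutamide replicate 1 (0.22, 0.0349) or 10 DHT replicate 2 (0.17, 0.0196). The E2F1 to RB1 ratio in knockdown 10 was 0.142 ± 0.0165 with vehicle, 0.529 ± 0.0907 with DHT and 0.133 ± 0.0183 with enzalutamide, each below all NTC libraries of its condition. E2F4 did not pass the test in any of these contrasts (log2 -0.08 with vehicle, 0.11 with DHT and -0.01 with enzalutamide; adjusted p = 0.302, 0.141 and 0.92). E2F6 was called only with DHT, at -0.17 (adjusted p = 0.0216), and that call was lost without NTC DHT replicate 1 (-0.13, adjusted p = 0.106). Over all 26 alternative fits it was lost in 3.

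In all, knockdown 10 with vehicle had 7 of the 10 genes lower and 1 higher, where 34.6% of tested genes were called, 19.1% lower and 15.5% higher. With DHT 8 of 10 were lower and none higher, against 43% of all genes called, 19.5% higher and 23.5% lower. With enzalutamide 7 of 10 were lower and none higher, against 34.6% called, 15.4% higher and 19.2% lower. The median log2 change of the 10 genes was -0.51 with vehicle, -0.64 with DHT and -0.56 with enzalutamide, beside 0 over all tested genes in each. Without 10 DHT replicate 2, the DHT contrast still called 8 genes, with E2F1 at -1.36, E2F2 at -1.38, E2F7 at -1.37, E2F8 at -1.31 and RBL1 at -0.70.

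DHT still raised the cycle-linked genes in knockdown 10. E2F1 rose 3.42-fold from vehicle to DHT (log2 1.77, SE 0.155, adjusted p = 3.63e-07), E2F2 3.15-fold, E2F7 4.61-fold, E2F8 4.96-fold and RBL1 1.45-fold (adjusted p = 0.000946), and for each the DHT libraries lay above all vehicle libraries. E2F4 rose 1.27-fold (adjusted p = 0.000277). In total 7 genes were called higher and 1 lower, with 22.2% of all genes called, 13.3% higher and 8.92% lower. Of these, E2F5 rose by 0.24 (adjusted p = 0.0368), a call lost when any 1 of 15 of the 18 libraries was left out (adjusted p 0.0552 to 0.274), all but NTC vehicle replicate 1, 10 DHT replicate 2 and 10 enzalutamide replicate 1. E2F6 fell by 0.18 (adjusted p = 0.0323), and lost its call without 10 vehicle replicate 1 or 3 or 10 DHT replicate 1 (adjusted p 0.063 to 0.0799). Over all 26 alternative fits the E2F5 call was lost in 21 and the E2F6 call in 6. Enzalutamide lowered E2F1, E2F2, E2F4, E2F7, E2F8 and RBL1 in knockdown 10, by 3.89-, 4.98-, 1.27-, 4.87-, 6.33- and 1.52-fold, and raised E2F6 1.17-fold (adjusted p = 0.00888), where 20.3% of all genes were called, 12.2% lower and 8.08% higher. The count over all genes was 2949, and 4518 with the replicate block. The E2F6 call was lost when only the 2 groups compared were fitted (adjusted p = 0.0723). E2F5 differed by -0.16 (adjusted p = 0.161) and was called without 10 DHT replicate 2 (-0.23, adjusted p = 0.0337).

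The size of the DHT response was then compared between the hairpins with an interaction term. By edgeR none of the 10 genes differed at an adjusted p under 0.05, with 0.199% of all genes called (0.0412% higher and 0.158% lower), and DESeq2 also called 0. For 5 genes the unadjusted p was under 0.05, as it was for 1598 of all 14558 genes. RBL1, which rose by 0.93 in NTC and 0.54 in knockdown cells, differed by -0.39 (SE 0.141, adjusted p = 0.286), and E2F6 differed by -0.28 (SE 0.079, adjusted p = 0.18). The others of these 5, E2F4, E2F5 and RB1, differed by 0.19, 0.25 and -0.20. E2F1 differed by -0.18 with an SE of 0.207 (adjusted p = 0.834), so its interval is wide and a smaller difference was not detectable here. For the enzalutamide response edgeR and DESeq2 called 0 of 10 as well, with E2F6 the 1 gene at an unadjusted p under 0.05 and 0.35% of all genes called (0.268% higher and 0.0824% lower). With the replicate number as a block, E2F6 passed in that contrast (0.29, adjusted p = 0.0471), and the counts over all genes went from 29 to 427 for DHT and from 51 to 573 for enzalutamide.

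In FBS no gene of the family passed the test for the hairpin against SIRT1, and the spread between replicates was wide. E2F1 was at 49.0, 45.6 and 32.7 TPM in NTC and 50.1, 49.0 and 33.2 TPM in shSIRT1 cells (log2 0.06, SE 0.16, adjusted p = 0.891). E2F2 was at 9.92, 9.13 and 5.90 TPM and at 8.33, 8.01 and 5.51 TPM (log2 -0.19, SE 0.189), E2F7 at 9.24, 8.53 and 6.25 TPM and at 9.96, 9.92 and 5.11 TPM (log2 0.06, SE 0.218), and E2F8 at 10.4, 9.75 and 6.67 TPM and at 11.1, 12.6 and 6.02 TPM (log2 0.16, SE 0.235). Replicate 3 was the lowest in both groups for each of these genes and for RBL1 (15.3 and 16.1 TPM, against 19.8 to 21.2 TPM in the other 4 libraries). With the replicate number as a block the SE was 0.053 for E2F1, 0.081 for E2F2, 0.089 for E2F7 and 0.097 for E2F8. That fit also called 0 of the 10 genes. By edgeR, 0 of the 10 genes were called, where 2.71% of all genes were (0.509% higher and 2.21% lower), and DESeq2 called 0. RB1 was the 1 gene with an unadjusted p under 0.05 (0.017, log2 0.19, SE 0.066, adjusted p = 0.179). It was at 26.5, 24.7 and 27.7 TPM in NTC and 30.8, 30.8 and 27.7 TPM in shSIRT1 cells. With both libraries numbered 3 left out RB1 was called (0.26, adjusted p = 0.00084), and the count over all genes went from 389 to 3426; with the replicate block it was 1676 and RB1 had an adjusted p of 0.0559.

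The difference between the knockdown change with vehicle in CSS and that in FBS was itself tested, in a joint fit of 12 libraries. By edgeR, 6 of the 10 genes were called lower and none higher in this contrast, where 13.8% of all genes were called, 7.47% higher and 6.29% lower. The differences were -1.34 for E2F1 (SE 0.227, adjusted p = 0.00159), -1.04 for E2F2 (0.018), -0.69 for E2F5 (0.000939), -1.58 for E2F7 (0.00846), -1.85 for E2F8 (0.00643) and -0.50 for RBL1 (0.0409), with adjusted p in parentheses. The RBL1 call was lost when any 1 of 8 of the 12 libraries was left out (adjusted p 0.0536 to 0.096), all but NTC FBS replicates 1 and 2, shSIRT1 replicate 3 and NTC vehicle replicate 1. Over all 20 alternative fits the RBL1 call was lost in 10. E2F3 differed by -0.32 (adjusted p = 0.0572) and was called without shSIRT1 replicate 3 (-0.41, adjusted p = 0.00712). SIRT1 itself was reduced more in FBS (log2 -2.24) than with vehicle (-1.55), a difference of 0.72 (adjusted p = 0.00156). Clone, medium and library depth change together in this contrast and cannot be told apart.

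The make-up of the E2F transcripts differed between the groups. In NTC cells the TPM of E2F1 to E2F8 summed to 101.0 ± 3.93 with vehicle, 148.0 ± 3.49 with DHT and 99.3 ± 4.87 with enzalutamide. E2F1 made up 9.44 ± 0.712%, 25.3 ± 2.07% and 9.28 ± 0.47% of the sum. From vehicle to DHT, the share of E2F4 and E2F5 together went from 54.6 ± 0.655% to 40.8 ± 2.07%, and that of the atypical pair from 2.71 ± 0.471% to 8.26 ± 0.454%. In knockdown 10, E2F1 made up 4.63 ± 0.706%, 12.3 ± 1.9% and 4.11 ± 0.619%, and E2F4 with E2F5 held 58.1 ± 2.05%, 56.8 ± 1.33% and 59.0 ± 0.987%. The DHT share of E2F4 and E2F5 in the knockdown libraries, 55.3 to 57.8%, lay above every NTC DHT library, where it was 39.0 to 43.1%. In FBS the E2F1 share was 23.0 ± 2.38% in NTC and 23.3 ± 2.07% in shSIRT1 cells.

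**Figure D3:**
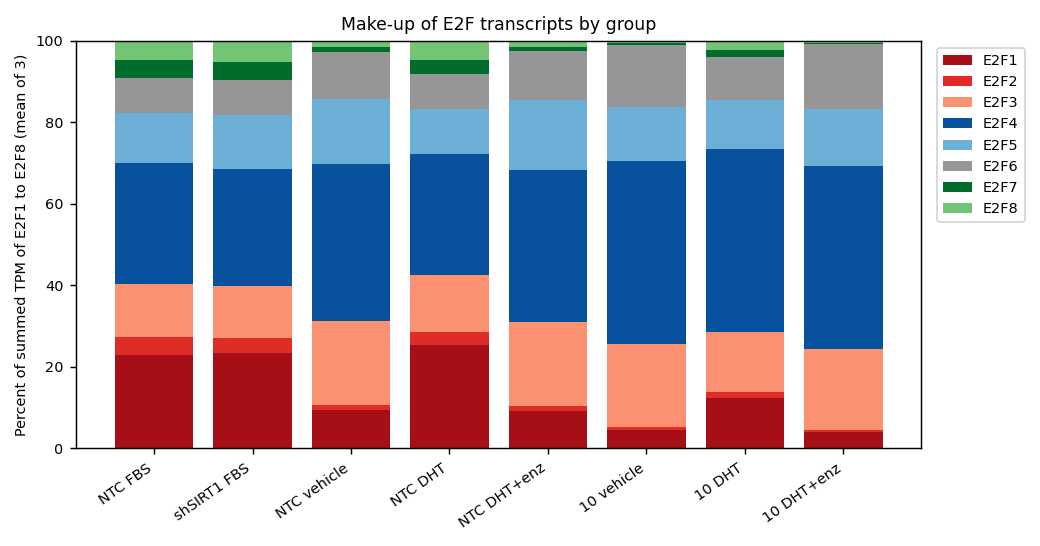
Share of each E2F gene in the summed TPM of E2F1 to E2F8 (vertical axis, percent, mean of 3 libraries) in the 8 groups. E2F1 takes 25.3% in NTC cells with DHT and 4.11% in knockdown 10 with DHT and enzalutamide, and E2F4 is the largest share in every group.

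Genes that E2F factors are known to drive followed the same pattern. The gene lists were chosen with earlier results of these data known, so their counts are no independent support. Of 42 replication genes used as G1/S targets, 42 rose with DHT in NTC cells (median log2 1.43, beside 0 over all genes) and 42 in knockdown 10 (median 1.09, beside 0.01). They include FEN1, a flap nuclease of lagging-strand synthesis (3.18-fold in NTC cells, adjusted p = 1.6e-09), and PCNA, the sliding clamp of the polymerase (2.37-fold). Knockdown 10 had 41 of the 42 lower with vehicle (median -0.76), 42 with DHT (-1.14) and 37 with enzalutamide (-0.69). Among all tested genes 19.1%, 23.5% and 19.2% were lower in these knockdown contrasts. With DHT 17.4% of them rose in NTC cells and 13.3% in knockdown 10. UHRF1, which guides maintenance DNA methylation, was 4.31-fold lower with vehicle (adjusted p = 4.42e-08), and TYMS, which makes thymidylate, 2.24-fold lower. All 32 G2/M genes that DREAM is known to repress moved the same way in these contrasts, with a median of 1.63 for DHT in NTC cells and -1.64, -1.60 and -1.62 for knockdown 10 with vehicle, DHT and enzalutamide. BIRC5, the survivin gene, was 3.69-fold lower with vehicle (adjusted p = 4.44e-08). In FBS edgeR called none of the 42 and none of the 32, whose medians were 0.14 and 0.11 beside 0.01. There 2.71% of all genes were called. With the replicate block PRIM1 (0.28, adjusted p = 0.0479) and PCNA (0.16, 0.0351) of the 42 passed there as higher in shSIRT1 cells. DNMT1, in neither list, passed too (0.16, 0.03). These 3 were looked at because they are named for other contrasts. How many of the 42 and 32 pass with the block was not counted. Whether the share of cycling cells moved with the family was not tested.

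**Figure D4:**
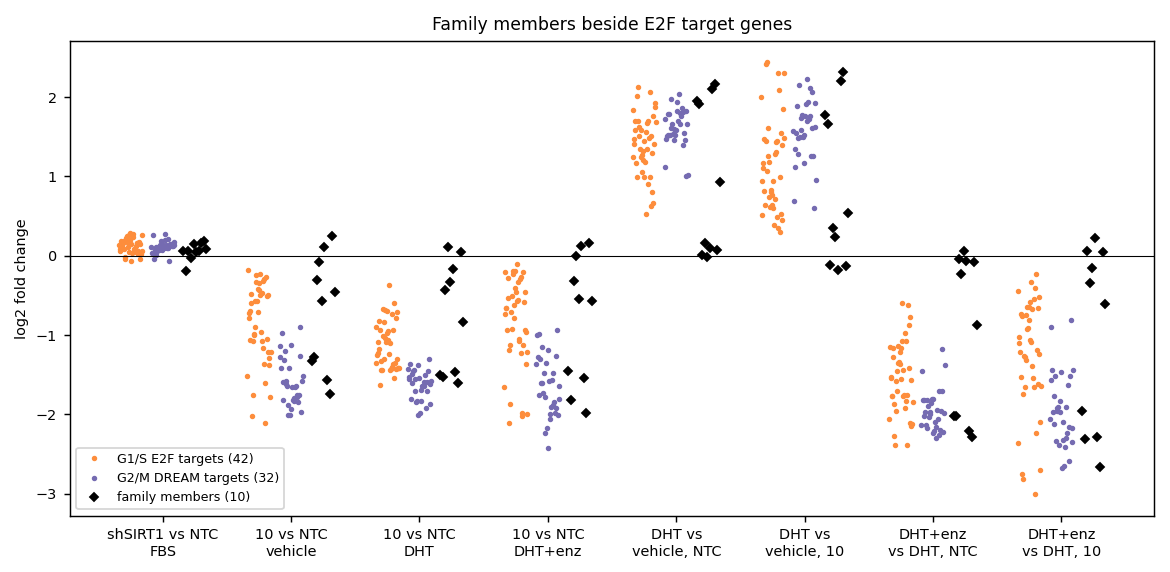
Fitted log2 fold change (vertical axis) of 42 G1/S targets, 32 G2/M targets and the 10 family members in 8 contrasts, 1 point per gene. The target genes lie below 0 in all 3 stripped-serum knockdown contrasts and above 0 with DHT, while the family spreads from genes that move with them to genes near 0.

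Some targets differed in their DHT response between the hairpins. The response was smaller in knockdown 10 for 4 of the 42 G1/S genes by edgeR, among them RRM1, a ribonucleotide reductase subunit (difference -0.65, SE 0.101, adjusted p = 0.0141), PRIM1, the DNA primase (-0.63, adjusted p = 0.0235), and CDT1, which loads the helicase at origins (-0.73, adjusted p = 0.0293). These calls were lost when any of 2, 6 and 7 of the 18 libraries was left out, most often an NTC vehicle or NTC DHT library (RRM1 without NTC vehicle replicate 1 or NTC DHT replicate 3, adjusted p 0.0525 to 0.0534; PRIM1 0.0534 to 0.0873; CDT1 0.0671 to 0.0996). The fall with enzalutamide was smaller in the knockdown for 5 of the 42, with PRIM1 at 0.77, RRM1 at 0.67 and PCNA at 0.61. Among all tested genes 0.158% were called lower in the DHT interaction and 0.268% higher in the enzalutamide interaction. CCNE2, the E-type cyclin whose kinase phosphorylates the pocket proteins, was at 15.7, 17.6 and 17.1 TPM with vehicle and 35.5, 33.4 and 35.2 TPM with DHT in NTC cells. In knockdown 10 it was at 20.2 ± 0.192 TPM (SD, n = 3) with vehicle and 28.0, 16.9 and 25.8 TPM with DHT, where replicate 2 with DHT lay below the vehicle libraries. Its rise was 1.03 in NTC cells (adjusted p = 4.32e-07) and 0.24 in knockdown 10 (adjusted p = 0.106), and the difference was -0.80 (adjusted p = 0.0265). Without 10 DHT replicate 2 the knockdown rise was 0.37 (adjusted p = 0.00196). In 10 of 26 alternative fits the difference was not called. The difference lost its call when any of 7 libraries was left out, all 3 NTC vehicle libraries, NTC DHT replicates 1 and 3 and 10 vehicle replicates 1 and 3 (adjusted p 0.0569 to 0.0873), with values of -0.82 to -0.77.

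CDKN1A and RBL2 were higher in knockdown 10, while the 7 inhibitors of cyclin-dependent kinases as a list went both ways. With vehicle 3 were higher and 2 lower (median -0.15), with DHT 3 and 3 (-0.41), and with enzalutamide 1 and 2 (0.03). Among all tested genes 34.6%, 43% and 34.6% were called in these contrasts. CDKN2C, an inhibitor of CDK4 and CDK6, was lower, at -0.60, -1.17 and -0.62 (adjusted p = 0.000662, 3.13e-07 and 0.000615). CDKN2A was lower by edgeR too, at -0.736 with DHT and -0.645 with enzalutamide (adjusted p = 6.12e-05 and 0.00025). CDKN1A (p21), an inhibitor of the kinases that inactivate RB1, was at 180.0, 225.0 and 210.0 TPM in NTC cells with vehicle and at 424.0, 543.0 and 566.0 TPM in knockdown 10, 2.46-fold higher with no overlap (adjusted p = 2.58e-06). It was also 2.28-fold higher with DHT and 2.25-fold higher with enzalutamide (adjusted p = 3.88e-06 and 7.98e-06). From vehicle to DHT CDKN1A changed by -0.383 in NTC cells (edgeR adjusted p = 0.0515) and -0.495 in knockdown 10 (0.0181). Adding enzalutamide to DHT changed it by 0.442 in NTC cells (0.0264) and 0.42 in knockdown 10 (0.0441). The NTC DHT change was called in 12 of 26 alternative fits. The other calls were lost in 4, 3 and 6. In FBS it was at 208.0, 202.0 and 169.0 TPM in NTC and 123.0, 123.0 and 164.0 TPM in shSIRT1 cells (log2 -0.49, adjusted p = 0.0955). With the replicate block the FBS difference passed, with an adjusted p of 0.0142, and it did so without NTC FBS replicate 3 or shSIRT1 replicate 3 (log2 -0.68 to -0.57, adjusted p 0.00666 to 0.0442). RBL2 was at 121.0, 98.9 and 104.0 TPM with vehicle in knockdown 10, above all NTC libraries (log2 0.46, SE 0.102, adjusted p = 0.00183), and higher by 0.38 with DHT and 0.42 with enzalutamide (adjusted p = 0.00561 and 0.00361). The ratio of RBL1 to RBL2 TPM was 0.0763 ± 0.011 in NTC cells with vehicle, 0.179 ± 0.00659 with DHT and 0.0407 ± 0.00364 in knockdown 10 with vehicle.

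Of 8 tested G1 cyclins, kinases and phosphatases, 7 rose with DHT in NTC cells and 4, 5 and 4 were lower in knockdown 10 with vehicle, DHT and enzalutamide. CDC25A, the phosphatase that frees CDK2 for activity, was 2.15-fold lower with vehicle (adjusted p = 6.26e-06), and CDK2 1.58-fold lower. CCND1, cyclin D1, was not called in any of these (log2 0.03 with DHT in NTC cells, -0.12 for knockdown 10 with vehicle). With the replicate block it passed in the knockdown contrasts, at -0.12, -0.20 and -0.19 (adjusted p = 0.0212, 0.000355 and 0.000625). Of the 8 MuvB and DREAM genes, 4 were lower and 1 higher in knockdown 10 with vehicle, led by FOXM1 and MYBL2, the activators that replace the repressor in late S phase and G2 (2.41- and 2.79-fold lower, adjusted p = 6.26e-06 and 1.01e-05). The higher gene was RBL2. TFDP1, the main DP partner, was at 34.1 to 36.5 TPM in NTC cells and 30.0 to 36.5 TPM in knockdown 10 with vehicle (log2 -0.09, adjusted p = 0.397). With DHT it was lower in the knockdown (-0.28, adjusted p = 0.00677). Over all genes 15.5% were higher and 19.1% lower in knockdown 10 with vehicle, 19.5% and 23.5% with DHT, and 15.4% and 19.2% with enzalutamide. DHT raised 17.4% of all genes in NTC cells. Of 9 proapoptotic E2F targets, 4 were higher and none lower in knockdown 10 with vehicle, 3 higher and 1 lower with DHT (APAF1, the apoptosome scaffold, -0.23, adjusted p = 0.0323), and 5 higher and none lower with enzalutamide. The APAF1 call was lost without control replicate 2, control replicate 3 or knockdown replicate 1 of the DHT groups (edgeR adjusted p between 0.0615 and 0.144). The 4 with vehicle included BBC3, which encodes the BH3 protein PUMA and is also a p53 target (1.69-fold, adjusted p = 0.00277). The median of this list was 0.20 with vehicle, 0.08 with DHT and 0.27 with enzalutamide, beside 0 over all genes in each.

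The deposited data give, for each gene, a length averaged over its transcripts by their estimated share. For E2F3, and also for E2F6 and RBL1, this length differed between vehicle and DHT in NTC cells. In GENCODE 29 (GRCh38) the longer E2F3 transcript begins at chr6:20402167 and has 4749 bases, and the shorter begins at chr6:20403679 and has 4425 bases. The weighted length was 4529 to 4547 bases in NTC cells with vehicle, 4581 to 4649 with DHT and 4498 to 4544 with enzalutamide, so the DHT libraries lay above the other 6. In knockdown 10 it was 4453 to 4515, 4515 to 4569 and 4486 to 4530 bases, and the DHT group overlapped the enzalutamide group. In FBS it was 4550 to 4656 in NTC and 4613 to 4741 in shSIRT1 cells. These starts differ from the RefSeq starts of the windows above. A longer average goes with a larger estimated share of the longer transcript, while the total level of E2F3 did not pass the test with DHT. With 3 libraries against 3 the smallest exact two-sided p is 0.1, so this is given as a description. The authors' annotation was on hg19 and its transcript lengths may differ from GENCODE's. E2F6 in NTC cells was at 3258 to 3267 bases with vehicle, 3272 to 3276 with DHT and 3261 to 3267 with enzalutamide. RBL1 was at 4239 to 4270, 4056 to 4221 and 4161 to 4270 bases. For E2F5 the ranges overlapped (1655 to 1670, 1663 to 1687 and 1648 to 1684). In knockdown 10 E2F6 was not longer with DHT (3246 to 3259, against 3262 to 3265 with vehicle). E2F1, E2F2, E2F4, E2F7, E2F8 and RB1 had a single length in all 24 libraries.

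**Figure D5:**
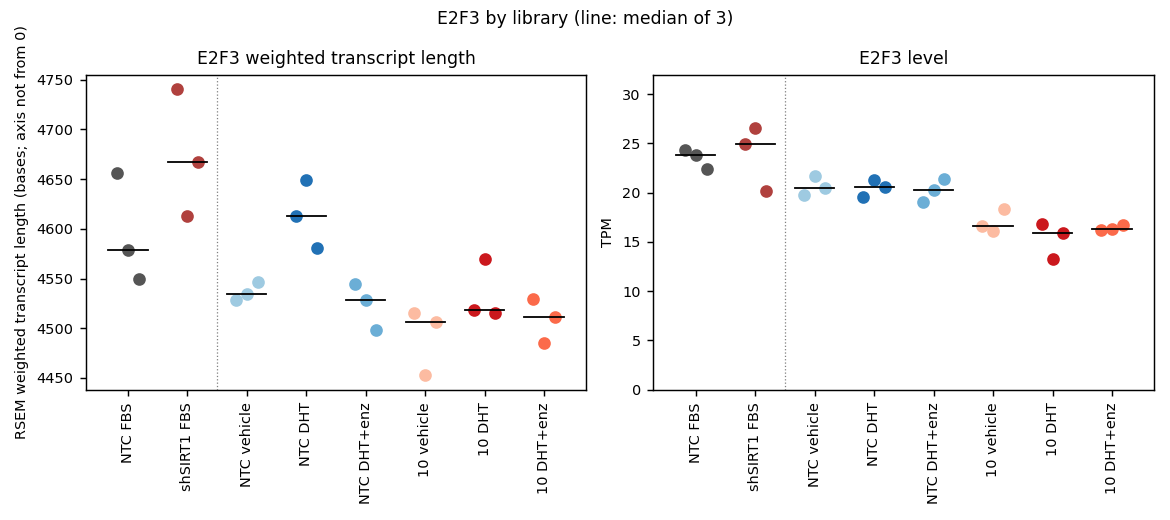
Left, weighted transcript length of E2F3 in bases (axis not from 0); right, E2F3 level in TPM (axis from 0), 1 point per library with the median of each group as a line. In NTC cells the 3 DHT libraries, at 4581 to 4649 bases, lie above the vehicle and enzalutamide libraries in length but not in level.

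Across the 18 CSS libraries some members moved closely together, and the others followed them in part or not. E2F1, E2F2, E2F7, E2F8 and RBL1 correlated with each other at a Pearson r of 0.95 to 0.98 on log2 CPM. E2F3 and E2F5 correlated with each other at 0.86, and E2F1 with E2F4 at 0.67, with E2F6 at -0.30 and with RB1 at -0.36. E2F5 also followed the cycle-linked genes in part (0.72 with E2F8, 0.70 with RBL1 and 0.69 with E2F1), as did E2F4 (0.73 with E2F7). E2F3 correlated with E2F1 at 0.55. These values describe 6 groups of 3 libraries and carry no test. The genes most like E2F1 were CLSPN (r = 0.994), ORC6 (0.993) and SKA3 (0.993). Those most like E2F7 were AURKB (0.994), C15orf42 (0.989) and CDCA5 (0.989), and those most like E2F8 were MCM10 (0.986), CDC6 (0.985) and TTK (0.984). E2F2 was most like UBE2C (0.988), AURKA (0.985) and CLSPN (0.985), and RBL1 most like TMEM48 (0.989), SMC4 (0.988) and TACC1 (0.988). For RB1 they were KPNA4 (0.954), PAPD5 (0.922) and ZDHHC20 (0.899), for E2F3 H2AFJ (0.980), BEND4 (0.976) and FAM65B (0.973), for E2F4 CPSF7 (0.960), CNPY3 (0.946) and SH3BGRL (0.916), for E2F5 RDH11 (0.971), C5orf51 (0.964) and RAB13 (0.960), and for E2F6, which had no close match, KIAA1751 (0.784), SNX11 (0.754) and ISCA2 (0.739). RefSeq lists pseudogenes of E2F3, E2F4 and E2F6, so reads of these 3 genes may be shared with copies and their values are uncertain to that extent.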

How the data were processed

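RNA was measured by sequencing in 24 LNCaP libraries, 3 in each of 8 groups taken from the sample titles. Per the submitters' processing notes, CASAVA 1.8.2, RSEM 1.2.31 and hg19 were used; the annotation is not given in the sources used here. Per the file headers, the deposited tables hold for each gene an estimated (expected) count, a TPM, an FPKM and transcript lengths weighted by isoform. The deposited FPKM values were not used. Expected counts were rounded to whole numbers for the tests, and deposited TPM were used for levels, since they correct for length.

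Tests used R 4.3.3 and edgeR 4.0.16 (quasi-likelihood test, TMM factors, filterByExpr, Benjamini-Hochberg over all genes tested, two-sided, called at an adjusted p under 0.05). The FBS fit held 6 libraries and 14329 genes, the CSS fit 18 libraries and 14558 genes, and the joint fit 12 libraries and 15345 genes. FBS and CSS libraries differ in depth and in the length offset of RSEM, so levels were not tested between them. All 10 family genes passed the filter. On counts simulated for the FBS and vehicle knockdown contrasts, 100% of 100 genes changed by 1 and of 100 changed by 2 on the log2 scale were recovered, with 5.66% and 8.68% of calls false. Changed genes were drawn only above a floor of mean CPM, which E2F2, E2F7 and E2F8 did not reach with vehicle (group means 1.03 to 4.09). Only the groups compared were fitted, and changes under 1 were not simulated. Recovery of such genes and changes was not tested. Alternatives used DESeq2 1.42.0 and limma 3.58.1 on log2(TPM + 0.5).

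Replicate numbers come from the sample titles. Same-numbered libraries deviated together in 7 of 10 pairs of groups checked (every correlation over 0.1), and the lowest of the other 3 was 0.047.

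The family genes and the gene lists were chosen with earlier results of these data known. Named genes were the 10 members, SIRT1, KLK3, CDKN1A, RBL2, TFDP1, FOXM1, MYBL2, CCNE2 and CCND1, up to 3 called genes of lowest adjusted p from each list described (FOXM1, MYBL2, CDC25A and CDK2 are among these), and the 3 genes most like each member. APAF1, PCNA for the DHT interaction and CDT1 and RFC5 for the enzalutamide interaction fall outside this rule and were named after their values were seen.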

Additional observations from a re-analysis of the deposited data

Results flagged for a closer look

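The knockdown change with vehicle in stripped serum differed from that in FBS for 6 family genes, by edgeR's test of the difference itself. The log2 difference was -1.34 for E2F1, -1.04 for E2F2, -0.69 for E2F5, -1.58 for E2F7, -1.85 for E2F8 and -0.50 for RBL1. The RBL1 difference passed in 4 of the 12 fits that left out 1 library. In the same contrast FOXM1 and MYBL2, the late-cycle activators, differed by -1.36 and -1.56, and CDKN1A, the kinase inhibitor, by 1.83. RBL2 differed by 0.45, a call lost without NTC FBS replicate 3, shSIRT1 replicate 1 or 2, or NTC vehicle replicate 2 or 3 (adjusted p 0.0546 to 0.0756). SIRT1 differed by 0.72, since its knockdown was deeper in FBS. Medium, hairpin, clone and library depth cannot be told apart in this contrast.

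The response to DHT differed between knockdown 10 and NTC cells for CCNE2 (-0.80), RRM1 (-0.65), PRIM1 (-0.63) and CDT1 (-0.73), and for PCNA (-0.51), whose call was lost in 10 of 18 fits that left out 1 library (adjusted p 0.0502 to 0.105). The response to enzalutamide differed for CCNE2 (0.74), PRIM1 (0.77), RRM1 (0.67), PCNA (0.61), CDT1 (0.70) and DNMT1, the maintenance methyltransferase (0.42). The enzalutamide differences of PRIM1, RRM1 and PCNA kept their calls in all 18 fits that left out 1 library. Those of CCNE2, CDT1 and DNMT1 each lost theirs in 7 (adjusted p 0.0622 to 0.0882 for CCNE2 and CDT1, and 0.0699 to 0.0913 for DNMT1). RFC5 was also called for enzalutamide (0.56, edgeR adjusted p = 0.041). These genes were looked up only in the gene lists, which were chosen with earlier results known, so their kind was fixed by that choice. Over all genes 29 were called for the DHT response and 51 for the enzalutamide response. No family member passed either test.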

How the results depend on the processing

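The changes of E2F1, E2F2, E2F7, E2F8 and RBL1 in the 7 knockdown, DHT and enzalutamide contrasts in stripped serum kept their direction and call in 910 of 910 refits. These genes were called in each of these contrasts in the main fit, and most refits only left out 1 library. The refits share most of their data, so the count is no independent support. Over all 10 genes and 13 contrasts 3140 of 3210 refitted values kept their call, 58 lost and 12 gained one, and none called in both fits reversed. The number of family genes called moved by over 1.5 times in 3 cases: from 0 to 1 in FBS with the libraries numbered 3 left out (RB1), from 0 to 1 for the enzalutamide response with the replicate block (E2F6), and from 6 to 3 for the difference between vehicle and FBS with limma on log2(TPM + 0.5), where E2F2 (-0.62), E2F7 (-0.90) and RBL1 (-0.47) lost their calls. Of family genes, the replicate block changed the calls of RB1 in the enzalutamide knockdown contrast and of E2F6 in that response, and no other call of the 10. Over all alternatives, leave-one-out fits included, the counts stayed at 6 to 8 for DHT and 6 to 8 for enzalutamide in knockdown 10, 5 to 6 and 6 to 6 in NTC cells, and 7 to 8, 7 to 8 and 8 to 8 for the knockdown with DHT, enzalutamide and vehicle. E2F3's difference between vehicle and FBS passed with DESeq2 (adjusted p = 0.0247), RLE factors (0.0428) and a mean CPM of at least 1 (0.047).

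Counts over all genes also moved between fits. They are drawn from far more genes than the family holds, so the stability of the counts cannot be compared between them. In FBS 389 genes were called, against 876 with all 24 libraries in 1 fit, 1676 with the block, 242 with limma, 3426 without the libraries numbered 3, 44 with libraries 1 and 2 summed, and 103 to 926 with 1 library left out. The DHT interaction called 29, against 3 with all libraries, 156 with DESeq2, 427 with the block, 3 with limma, 7 in only the groups compared and 5 to 90 with 1 left out. The enzalutamide interaction called 51, against 16, 256, 573, 16, 5 and 16 to 176. Fitting only the groups compared gave 1649 in place of 3236 for DHT and 1550 in place of 2949 for enzalutamide in knockdown 10. Summing FBS libraries gave 1118 in place of 2112 for vehicle against FBS. Enzalutamide against vehicle in knockdown 10 called 1, against 6 with DESeq2, 6 with the block, 2 unfiltered and 0 with limma, and in NTC cells 0 against 1 in only the groups compared. The cause of these moves was not tested. Few counts limit E2F2, E2F7 and E2F8 in knockdown 10 with enzalutamide (12 to 51 per library).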
